A study of Bos taurus with 2 samples.

Results

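The Toll-like receptors 1 to 10 were examined on 1 array labelled mastitis and 1 array labelled normal, both of mammary tissue of female Chinese Holstein cows taken after slaughter. Members were the genes TLR1 to TLR10, found by the gene name of a probe or by the current symbol of its RefSeq entry, and all 10 were on the array among 16959 named genes, with 29 probes. By the study's methods, the adult cows were in late lactation, antibiotics had been given to the cows with clinical mastitis but not to the healthy ones, and no cow had been given recombinant bovine somatotropin. Disease and antibiotic treatment therefore cannot be told apart. The methods give 3 cows per group and state that the RNA of each specimen was hybridised separately. The cow or cows behind each array are not given in the sources used here. Each condition has 1 array, so nothing here has a replicate check or a p-value.

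Toll-like receptors are membrane proteins that bind parts of microbes through leucine-rich repeats and signal through a cytoplasmic TIR domain. Receptors at the cell surface recognise lipoproteins, lipopolysaccharide and flagellin, and receptors of the endosome recognise nucleic acids. Epithelial cells and leukocytes of the udder carry them, and the adapters MYD88 and TICAM1 pass their signal to NF-kB and interferon regulatory factors.

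Net signal is the intensity of a spot after subtraction of the negative controls by the scanner software, in scanner units. Signals counted as well above background lay above 7.10 in mastitis and 8.74 in normal tissue, at spots that the software had found. Of 43653 probes, 70.2% passed in mastitis and 67.0% in normal tissue. The log2 ratio is mastitis over normal after division of each array by its 75th percentile of net signal, which was 210 in mastitis and 128 in normal tissue. A probe therefore needs about the ratio of these values between its net signals for a log2 ratio of 0. All 7 genes of a luminal epithelial list were measured on both arrays, and 1 of them (ELF5, 4.65-fold) was at least 2-fold lower in mastitis. Among all genes measured on both arrays, 9.14% were that much lower. With spike-in scaling KRT18 of this list was 2.31-fold higher. The milk protein gene LALBA gave 2 in mastitis and 57769 in normal tissue, and the other 5 milk protein genes listed (CSN1S1, CSN1S2, CSN2, CSN3 and PAEP) were all at least 2-fold lower in mastitis. Each of the 5 had a probe with saturated pixels in normal tissue, so no fold is given.

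Of the 29 probes, 19 were well above background on both arrays, 4 in mastitis alone, 0 in normal tissue alone and 6 on neither. This left 8 measured receptors, with TLR1 and TLR9 not measured, and 3 of the 8 rested on 1 probe. The limits were applied before scaling, where the 75th percentile was 210 in mastitis and 128 in normal tissue. Of all probes, 70.2% passed in mastitis and 67.0% in normal tissue, so passing in mastitis alone shows no direction. TLR2 was at least 2-fold lower in mastitis, and the other 7 were within 2-fold. No receptor was at least 2-fold higher. Among all 12245 genes measured on both arrays, 9.14% lay at least 2-fold lower in mastitis and 2.26% at least 2-fold higher, so 1 of 8 lower and 0 of 8 higher are close to these shares. Those shares stand for 1119 lower and 277 higher genes, and the split was 755 and 440 with quantile normalization, 819 and 420 with median scaling, 723 and 556 with spike-in scaling and 322 and 2454 without scaling. At 1.5-fold 2 receptors were lower and 0 higher, beside 21.5% and 7.66% of all genes. The receptors had a median log2 ratio of -0.31, against -0.15 over all genes, and the 5th and 95th percentiles of all genes were -1.33 and 0.73. The tissue is a mixture of cells, and fewer cells of a type cannot be told apart from less RNA per cell.

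**Figure D1:**
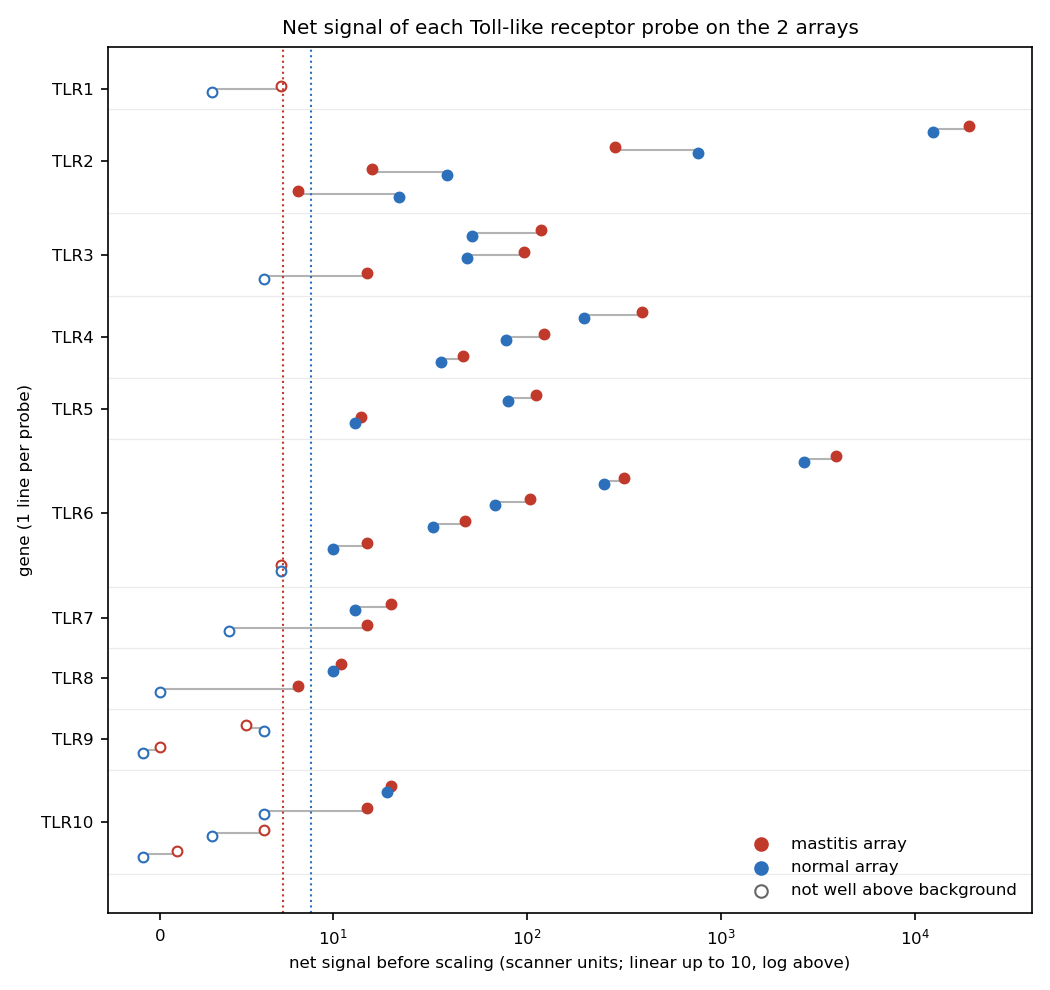
Net signal before scaling (horizontal axis, scanner units, linear up to 10 and logarithmic above) of each of the 29 probes, 1 line per probe, in mastitis (red) and normal tissue (blue). Open points are not well above background and dotted lines mark the limits of 7.10 (mastitis) and 8.74 (normal). Of the 4 TLR2 lines, 3 have the mastitis point on the left, while no other receptor with both points filled does.

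TLR2 forms pairs with TLR1 or TLR6 and recognises bacterial lipoproteins. Its probe A_73_115997 gave 284 in mastitis and 759 in normal tissue, a log2 ratio of -2.13 (technical SD 0.16). A_73_P101506 had 16 in mastitis and 39 in normal tissue, a log2 ratio of -2.0 (technical SD 0.31). A_73_P103071 had 8 in mastitis and 22 in normal tissue, a log2 ratio of -2.17 (technical SD 0.55). These 3 probes, taken without the brightest probe, had a mean log2 ratio of -2.10 (SD over probes 0.09), or 4.29-fold lower in mastitis. With the normexp background correction they were 2.19-fold lower. Their SD is below the technical SDs of A_73_P101506 and A_73_P103071, so it does not measure precision. The fourth probe did not follow these 3. A_73_P215177 gave 18962 in mastitis and 12325 in normal tissue, without saturated pixels, and a log2 ratio of -0.09 (technical SD 0.16). All 4 probes are annotated to the same RefSeq transcript, NM_174197, and an Ensembl transcript is listed among the best hits for A_73_115997 and A_73_P103071 but not for the other two.

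Over its 4 probes TLR2 had a mean log2 ratio of -1.60 (SD over probes 1.01), or 3.03-fold lower in mastitis. The technical SD of a probe combines the spread of the negative controls with the SD of 0.16 over replicate spots and does not cover differences between cows. The call rests on which probes are taken. With the brightest probe alone the log2 ratio was -0.09, and with the normexp background correction the gene was 1.78-fold lower. With that correction A_73_115997 kept a log2 ratio of -1.80, while the dim probes A_73_P101506 and A_73_P103071 had -0.85 and -0.75.

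Markers of leukocytes differed between the arrays beside TLR2. Of 8 measured neutrophil markers, 7 were at least 2-fold lower in mastitis and 0 higher, with a median log2 ratio of -1.66. They were CXCR1 (17.0-fold), ELANE (11.8-fold), CSF3R (4.80-fold), S100A12 (3.26-fold), S100A8 (3.05-fold), S100A9 (2.23-fold) and MMP9 (2.01-fold), where 9.14% of all genes were that much lower. With the normexp correction and with spike-in scaling 5 of the 8 were, without S100A9 and MMP9. The folds of CXCR1, ELANE and CSF3R, which rest on 1 probe each, were 2.93, 4.81 and 2.32 with normexp. The summed signal of the list, over the brightest probe of each gene and in multiples of the 75th percentile, was 15.2 in mastitis and 45.7 in normal tissue. S100A12 weighed most in both sums, with net signals of 2132 in mastitis and 3992 in normal tissue. MPO, CXCR2 and CD177, which mark neutrophils, stayed below the limits on both arrays. Of 9 measured macrophage markers, 4 were at least 2-fold higher (2.26% of all genes were) and 0 lower, with a median of 0.90 and sums of 134 in mastitis and 69.1 in normal tissue. CD5L was 9.06-fold, CD163 3.40-fold, C1QA 2.11-fold and C1QB 2.03-fold higher. With normexp CD163 was 1.53-fold and CD5L 5.28-fold higher and C1QC passed with 2.04-fold, and with spike-in scaling 6 of the 9 passed, with CSF1R and C1QC added. MARCO, a macrophage scavenger receptor, was below the limits too. All 8 T cell markers were within 2-fold, though 1 was higher with spike-in scaling. Of 6 measured B cell markers, with a median of -0.40, BLK was 2.62-fold higher and MS4A1 2.26-fold lower, and both were within 2-fold with normexp. MS4A1 rests on a probe with 16 in mastitis and 22 in normal tissue, while its other probe had 35 in mastitis and 9 in normal tissue, where it was not well above background. Of 3 dendritic markers LILRA4 was 5.68-fold higher (3.52-fold with normexp) and the other two below 0, with a median of -0.07. Of 7 fibroblast markers COL3A1 was 2.13-fold lower, with a list median of 0.49, and of 2 adipocyte markers LEP was 3.10-fold lower and FABP4 had 0.12. COL3A1 and LEP were within 2-fold with normexp. The part of these cells in the TLR2 result was not tested.

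**Figure D2:**
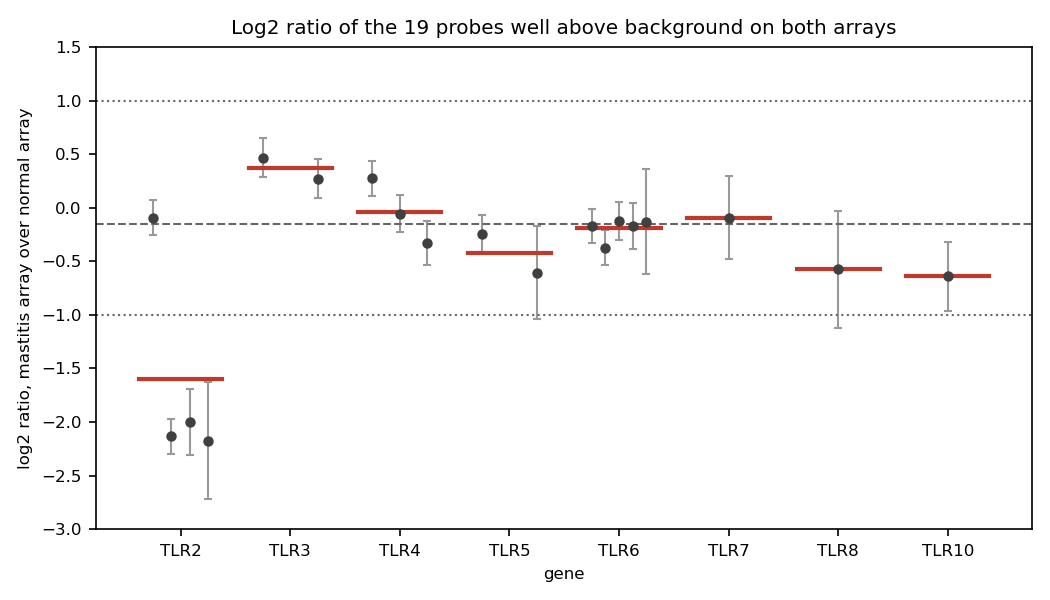
Log2 ratio (vertical axis, mastitis over normal) of the 19 probes well above background on both arrays. Points are probes with bars of 1 technical SD, red bars show the mean of each gene, and the dashed and dotted lines stand for the all-gene median (-0.15) and for 2-fold. Of the TLR2 points, 3 lie near -2.10 and 1 near -0.09, and all points of the other receptors lie between the 2-fold lines.

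TLR6 and TLR1 also act at the cell surface as partners of TLR2. TLR6 was covered by 6 probes, of which 5 were measured. Their net signals ran from 15 to 3904 in mastitis and from 10 to 2680 in normal tissue. Across this range the log2 ratios kept between -0.37 and -0.12, and the mean was -0.19 (SD over probes 0.10), close to the median of all genes. The sixth probe had a net signal of 7 on both arrays and was below the limits.

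The best hits of 2 of the 5 measured TLR6 probes, A_73_P034511 and A_73_P103091, also list the RefSeq transcript of TLR1, so their signal can hold both. Without them the mean log2 ratio of TLR6 was -0.22 (SD over probes 0.13). TLR1 had a single probe of its own, with net signals of 7 in mastitis and 3 in normal tissue, neither well above background. The gene table used for names holds TLR1 only as an older name of TLR6 and TLR10, and that probe kept the name in the files.

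TLR4, together with LY96 and CD14, is the receptor of lipopolysaccharide of gram-negative bacteria. A_73_105309 gave 393 in mastitis and 198 in normal tissue, a log2 ratio of 0.27. A_73_P047906 had 123 (mastitis) and 78 (normal), a log2 ratio of -0.06. A_73_P103081 had 47 (mastitis) and 36 (normal), a log2 ratio of -0.33. The probes of TLR4 thus disagreed in sign, and their technical SDs were 0.16, 0.17 and 0.21. The mean of -0.04 (SD over probes 0.30) was within that spread of 0 and of the median of all genes.

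TLR5, the receptor of bacterial flagellin, was measured by both of its probes. A_73_P031017 gave 111 in mastitis and 80 in normal tissue, and A_73_P103086 had 14 (mastitis) and 13 (normal). Their log2 ratios were -0.24 and -0.61, with a mean of -0.42 (SD over probes 0.26). The second of these had a technical SD of 0.43, so the probes differed by less than their technical error.

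TLR3, TLR7, TLR8 and TLR9 lie in endosomes and bind nucleic acids. TLR3, which recognises double-stranded RNA, had a log2 ratio above 0 under every setting run on the scanner files. A_73_P035191 gave 118 in mastitis and 52 in normal tissue, a log2 ratio of 0.47 (technical SD 0.18). A_73_P369241 had 97 (mastitis) and 49 (normal), a log2 ratio of 0.27 (technical SD 0.18). A_73_P324536 was well above background in mastitis alone, with 15 there and 6 in normal tissue. Its bound of 1.02-fold higher leaves out the error of the signal, and its log2 ratio with the normexp correction was -0.36. With this correction the TLR9 probe A_73_101913, with 0 in mastitis and -1 in normal tissue, had -0.50. A value between that and 0 at a dim probe thus shows no direction. The gene mean was 0.37 (SD over 2 probes 0.14), 1.29-fold higher in mastitis, and its log2 ratio was 0.07 with the normexp correction.

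TLR7 and TLR8 recognise single-stranded RNA and are neighbours in the bovine gene table. TLR7 gave 20 in mastitis and 13 in normal tissue at A_73_118687, a log2 ratio of -0.09 (technical SD 0.39). At A_73_P103096 it had 15 (mastitis) and 4 (normal), well above background in mastitis alone, with a bound of 1.02-fold that leaves out signal error. With the normexp correction the log2 ratios of these TLR7 probes were -0.31 and -0.22, between 0 and the -0.50 of the TLR9 probe A_73_101913. Each probe lies near the limit, and no direction is shown.

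TLR8 gave 11 in mastitis and 10 in normal tissue at A_73_106029, a log2 ratio of -0.58 (technical SD 0.54). Its other probe had 8 (mastitis) and 0 (normal), and no fold is given because the bound is under 1. TLR9, which recognises unmethylated CpG DNA, was not well above background at either probe. A_73_P103106 gave 5 (mastitis) and 6 (normal), and A_73_101913 had 0 (mastitis) and -1 (normal). TLR8 and TLR9 were thus at or near the signal of empty spots on both arrays, and a difference in them was not detectable here.

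TLR10 belongs to the same subfamily as TLR1 and TLR6. It is next to TLR6 in the bovine gene table, which has no entry of its own for TLR1. Of its 4 probes, A_73_P102351 was measured, with net signals of 20 in mastitis and 19 in normal tissue and a log2 ratio of -0.64 (technical SD 0.32). A_73_P031366 had 15 (mastitis) and 6 (normal) and was well above background in mastitis alone, with a bound of 1.02-fold that leaves out signal error. The other 2 probes were below the limits on both arrays. The ratio of TLR10 lay within 2 technical SDs of the median of all genes. With the normexp correction A_73_P102351 and A_73_P031366 had log2 ratios of -0.34 and -0.30. Both values lie between 0 and the -0.50 of the TLR9 probe A_73_101913, which had no signal, and show no direction.

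Most of the small ratios depend on the scaling. Of the 8 measured receptors, 7 were below 0 with the 75th percentile, 4 with spike-in scaling, 4 with quantile normalization, 5 with median scaling and 1 without scaling. The median log2 ratio of all genes was -0.15 with the 75th percentile, 0.09 with spike-in scaling, 0.01 with quantile normalization, 0.00 with median scaling and 0.57 without scaling. All of these but the quantile normalization shift every gene by the same amount. Across 17 settings that start from the scanner files, TLR2 was below 0 in all and at least 2-fold lower in 14, with the normexp correction, no scaling and the brightest probe as the exceptions. TLR3 was above 0 in all 17 and reached 2-fold without scaling (log2 ratio 1.08). TLR4 was below 0 in 10 of the 17, with values between -0.06 and 0.68. The settings are not independent checks. Keeping flagged spots, using only the gene names in the files, or leaving out probes that also hit another receptor left TLR2 at -1.60 and TLR3 at 0.37. The limit to net signals between 50 and 10000, chosen after seeing the data, kept only A_73_115997 for TLR2 (-2.13).

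**Figure D3:**
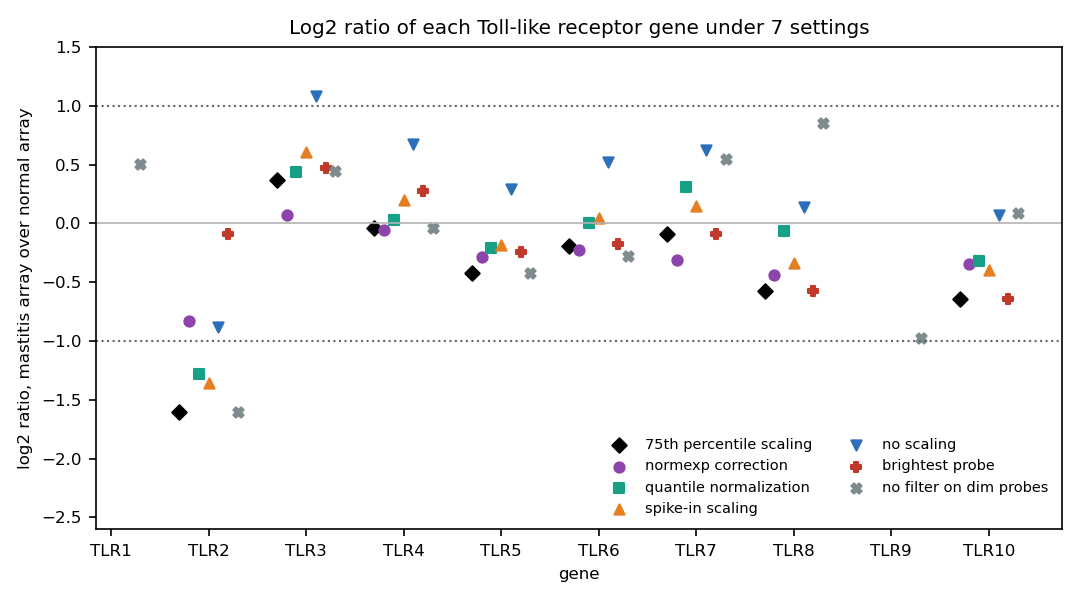
Log2 ratio (vertical axis, mastitis over normal) of each receptor under 7 settings, named in the key. Dotted lines mark 2-fold. TLR2 lies below 0 under each setting, from -1.60 to -0.09, and TLR3 above 0, from 0.07 to 1.08, while TLR1 and TLR9 have a value only without the filter on dim probes.

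The authors' deposited table of log2 values gives a different picture for the receptors when it is read by its row names. Over the 29 probes, the values in the rows that carry the probe names had a Spearman correlation with net signal of 0.21 in mastitis and 0.19 in normal tissue. When the table was moved by 1 row the correlations both rounded to 1. Probes share the array and are not replicates, so these are descriptions. The table holds 43652 rows for 43653 probes, and the missing probe is the last of the sorted list.

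At the TLR4 probe A_73_P047906, whose own net signals were 123 in mastitis and 78 in normal tissue, the row of that name held 2.19 (mastitis) and -6.64 (normal), a difference of 8.83. In sorted order the following probe belongs to CYP1A2, a cytochrome gene, and gave 6 (mastitis) and -3 (normal). The row that matched the TLR4 signal held 6.11 (mastitis) and 6.12 (normal), a difference of -0.01. Among the 19 receptor probes well above background on both arrays, by row name 3 lay beyond 2-fold on the higher side and 3 on the lower side, with differences from -5.63 to 8.83. After the move 0 were higher and 3 lower, all of TLR2, and differences ran from -2.33 to 0.55. The other 10 probes went the other way, with 2 higher and 1 lower by row name, against 8 higher and 0 lower after the move. For these dim probes large differences thus remained in the matched rows, such as 9.22 at the TLR8 probe A_73_P103101 (-0.13 by name) and 7.04 at the TLR10 probe A_73_P103111 (0.45 by name).

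Some further rows show the displacement. At A_73_P103096, a TLR7 probe, the named row held 2.58 (mastitis) and -6.64 (normal), and the next probe in the list is the TLR8 probe with net signals of 8 (mastitis) and 0 (normal). The difference was 9.22 by name and 1.78 in the matched row. At A_73_P103106, a TLR9 probe, the named row held 0.40 (mastitis) and -6.64 (normal), and the next probe, of TLR10, had 1 (mastitis) and -1 (normal). At A_73_P369241, a TLR3 probe, the named row held -4.98 (mastitis) and 0.65 (normal), a difference of -5.63, against 0.33 in the row that matched its signal. The values -4.98 and -6.64 are the lowest of the mastitis column and the normal column. Read by row names, TLR4 had a mean log2 ratio of 2.95, TLR3 of -3.68 and TLR8 of -3.57. With the table moved by 1 row these were 0.05, 0.44 and -0.03, and TLR2 was -1.31.

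**Figure D4:**
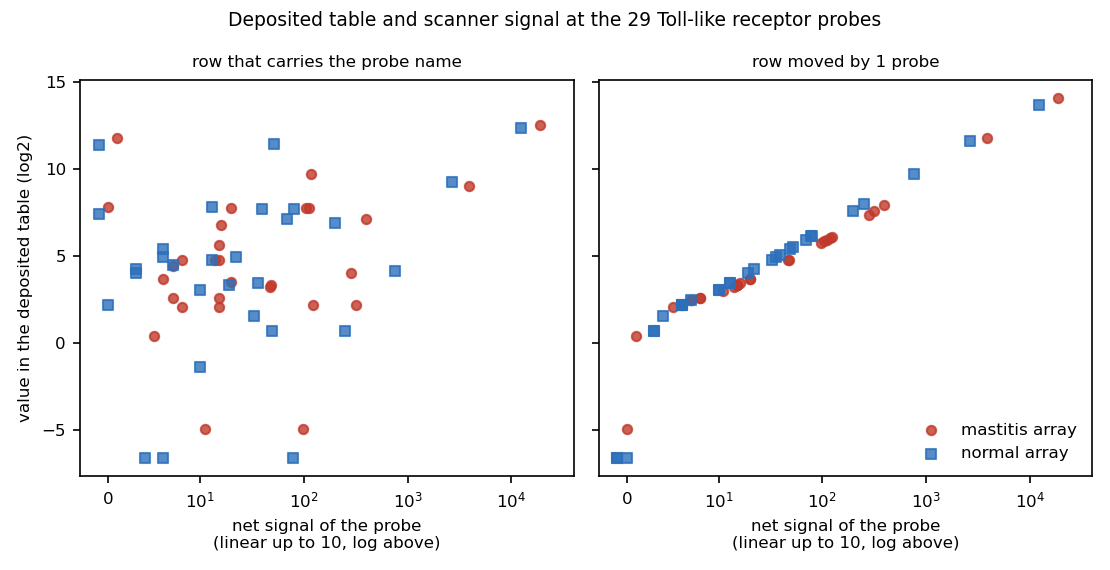
Value in the deposited table (vertical axis, log2) against the net signal of the same probe (horizontal axis, scanner units, linear up to 10 and logarithmic above) for the 29 probes in mastitis (red circles) and normal tissue (blue squares). The left panel takes the row that carries the probe's name, with Spearman correlations of 0.21 (mastitis) and 0.19 (normal), and the right panel the table moved by 1 row, where both round to 1.

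Of 6 measured co-receptors and ligand carriers, 4 were below 0, with a median of -0.60. CD14, which hands lipopolysaccharide to TLR4, gave 1490, 244 and 63 in mastitis and 1141, 375 and 60 in normal tissue at its 3 probes, with log2 ratios of -0.33, -1.33 and -0.64. LY96, the partner of TLR4 in binding lipopolysaccharide, had log2 ratios of -0.60 and -0.81 at 2 probes. Beyond 2-fold there were 1 lower and 1 higher gene of this list, beside 9.14% lower and 2.26% higher of all genes. These were LBP, which carries lipopolysaccharide, at 9.93-fold lower over 5 probes, and CD180, a relative of TLR4 on B cells and myeloid cells, at 3.08-fold higher from 1 probe.

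Among the adapters, MYD88, used by nearly all of the receptors, gave 2138 in mastitis and 1802 in normal tissue and a log2 ratio of -0.47. Its probes A_73_119857 and A_73_P102901 had 11 and 10 in mastitis and 7 each in normal tissue, well above background in mastitis alone. TICAM2, which links TLR4 to TICAM1, had log2 ratios of -0.45 and -0.47 at 2 probes. TICAM1, the adapter of TLR3, gave 8 (mastitis) and 26 (normal) at 1 probe and was 5.33-fold lower. TIRAP, which brings MYD88 to TLR2 and TLR4, had 3 (mastitis) and 13 (normal) and was well above background in normal tissue alone. The 4 measured adapters were all below 0 with this scaling, with a median of -0.47. The unscaled signals of MYD88, TICAM2 and the adapter SARM1 (36 in mastitis, 28 in normal tissue) were higher in mastitis. Only 1 adapter was at least 2-fold lower, beside 9.14% of all genes.

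Genes for the folding and cleavage of the receptors differed in both directions. Of 10 measured, beyond 2-fold 2 were lower and 1 higher in mastitis, with a median of 0.10. Of all genes 9.14% were lower and 2.26% higher. CNPY3, a chaperone of several Toll-like receptors, gave 1097 (mastitis) and 2413 (normal) at its brightest probe and was 3.36-fold lower (log2 SD 0.15 over 2 probes). CTSL, a lysosomal protease, was 6.48-fold lower from 1 probe with 20 (mastitis) and 79 (normal). CTSK, of the same protease family, was 2.86-fold higher (SD 0.08, 3 probes), with 1662 (mastitis) and 333 (normal) at its brightest probe. UNC93B1, which carries the endosomal receptors from the endoplasmic reticulum, gave 118 (mastitis) and 72 (normal) and a log2 ratio of 0.00. The chaperone HSP90B1 had a log2 ratio of -0.91, and CTSB, LGMN and CTSS, other lysosomal proteases, had 0.50, 0.43 and 0.42.

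The other receptors with a TIR domain, of the interleukin-1 family, were measured for 4 genes, of which 2 were at least 2-fold lower and 0 higher, with a median of -0.91. SIGIRR, an inhibitory member, was 3.25-fold lower, with probes that disagreed (log2 ratios of -0.75 and -2.65). IL1RAP, the shared accessory chain, was 2.35-fold lower over 3 dim probes and 1.99-fold lower with spike-in scaling. Further down the pathway, 2 of 18 measured kinases and ubiquitin ligases (PELI3, 2.16-fold, and IKBKE, 2.14-fold) were at least 2-fold lower, and 0 were higher. The same held for 2 of 9 inhibitors (SIGIRR and the transcriptional repressor ATF3, 2.26-fold), 1 of 12 transcription factors (FOS, 2.53-fold) and 2 of 13 induced cytokines and enzymes (CXCL8, 7.78-fold, and the chemokine gene CCL2, 2.84-fold). The medians of these lists were -0.19, -0.30, -0.22 and -0.53, in this order, against -0.15 over all genes, and the counts stand beside 9.14% of all genes lower. The kinases and the transcription factors were close to that share. With the normexp correction CD180, CTSK, IL1RAP, PELI3, IKBKE, ATF3 and FOS were within 2-fold, and with spike-in scaling IL1RAP, PELI3, IKBKE and ATF3 were. The folds of CXCL8, CTSL and TICAM1 were 2.81, 2.55 and 2.09 with normexp.

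**Figure D5:**
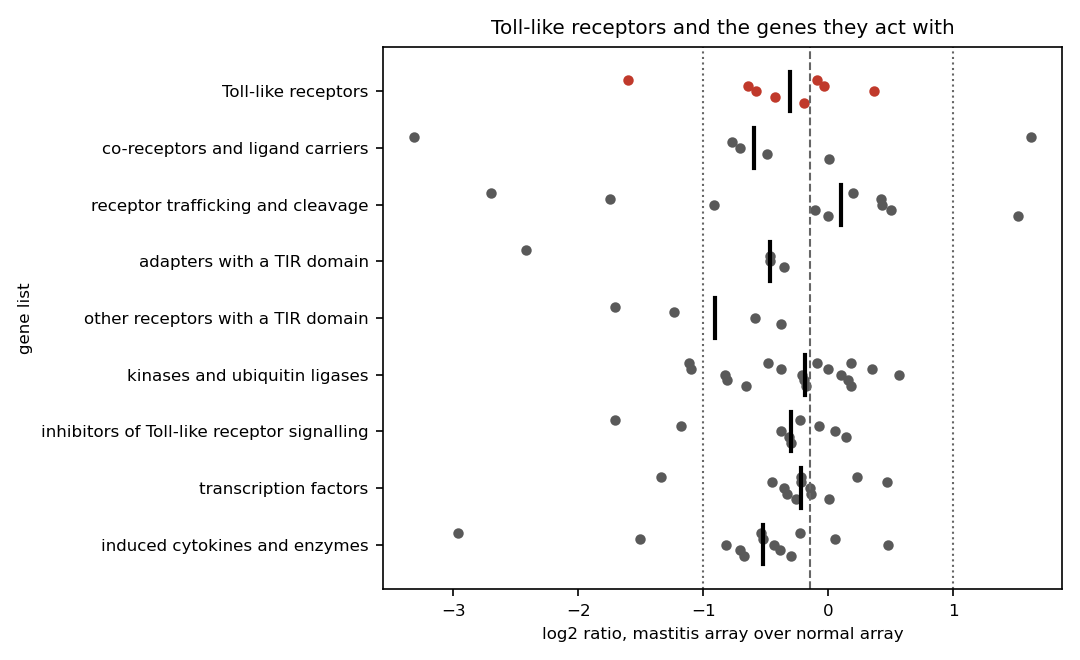
Log2 ratio (horizontal axis, mastitis over normal) of each measured gene of 9 lists, with the Toll-like receptors in red at the top. Each point is a gene (vertical jitter carries no value), solid bars show list medians, and the dashed and dotted lines stand for the all-gene median (-0.15) and for 2-fold. Of the receptors, TLR2 alone lies beyond a 2-fold line.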

How the data were processed

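Mammary RNA labelled with Cy3 was hybridised to 1 Agilent array (design 023647) per condition. Spot intensity, as the authors deposited it, came from GenePix Pro 6.1 net of the negative control mean, unscaled. Each row names the DarkCorner spots as that control. The 153 other negative control spots kept means of 0.013 (mastitis) and 1.95 (normal). Agilent Feature Extraction is named in the submitters' notes, an Affymetrix scanner in the methods. Also deposited were a flag score per spot, saturated pixels in percent, and a table of log2 values with no stated method.

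Controls were dropped, replicate spots averaged, and names taken from a RefSeq table (ARS-UCD2.0, used for names and neighbours). The limit for well above background was the mean of the 153 controls plus 2.6 SD. Gene values are means of log2 ratios across the probes measured on both arrays. A gene was counted as lower or higher at 2-fold. A bound sets the probe against the lowest signal well above background (8 for mastitis, 9 for normal) or its own signal there. It leaves out the error of the signals. Members and lists were chosen with earlier results of these data known. All receptors are named, with every listed pathway or marker gene at least 2-fold apart and 7 direct partners. The gene means were tested on simulated data. The normexp correction used limma 3.58.1 in R 4.3.3 (offset 50, local background), and the rest Python 3.11.15, numpy 2.4.6 and pandas 2.3.3. The number of arrays limits the precision.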

Additional observations from a re-analysis of the deposited data

Results flagged for a closer look

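Of the probes without a gene name, 3 are described in the files as a Toll-like receptor and enter none of the values above. TC392143, described as bovine TLR7, gave net signals of 428 in mastitis and 162 in normal tissue, well above the negative controls on both, and a log2 ratio of 0.69 (technical SD 0.16), or 1.61-fold higher. TC433095, described as bovine TLR3, had 98 in mastitis and 49 in normal tissue, a log2 ratio of 0.29 (technical SD 0.18), close to the 0.27 of the named probe A_73_P369241. AM086207, described as the untranslated start of the TLR1 mRNA, had 5 in mastitis, where its spot was not found, and 10 in normal tissue, just above the limit of 8.74. With these probes counted as their described genes, 1 of 8 receptors was still at least 2-fold lower and 0 were higher. TLR7 changed sign, from -0.09 to 0.30, and 6 receptors were below 0 instead of 7.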

How the results depend on the processing

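The 1 receptor beyond 2-fold on the lower side became 0 under the normexp correction, without scaling and with the brightest probe, and 2 with a threshold of 1.5-fold (TLR2 and TLR10) or with the deposited table by row names. The count of 0 higher was 1 without scaling (TLR3) and 1 with the deposited table by row names (TLR4). The median log2 ratio of -0.31 was -0.032 with quantile normalization, -0.069 with spike-in scaling, 0.41 without scaling, 0.024 without the filter on dim probes, -0.13 with the brightest probe, and -0.0025 and -0.013 with the deposited table by row names and moved by 1 row. With median scaling it was -0.16. Settings include 4 chosen after seeing the data: leaving out probes that also hit TLR1, adding probes by description, subtracting the mean of the negative controls (median -0.21), and limiting receptor probes to net signals between 50 and 10000 (TLR2 -2.13). Over all genes, 1119 were at least 2-fold lower and 277 higher in mastitis. These counts were 398 and 95 with normexp, 755 and 440 with quantile normalization, 420 higher with median scaling, 723 and 556 with spike-in scaling, 322 and 2454 without scaling, 4083 and 472 without the filter, 522 lower at net signals of at least 50, 1509 higher in the deposited table by row names, and 455 higher with that table moved by 1 row. The cause of these shifts was not tested. At 10 of the 19 measured probes the net signal was under 50 on at least 1 array, where a few scanner units move the ratio. No paired analysis was possible because each group has 1 array.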
